A study of Mus musculus with 6 samples.

Results

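The interferon-stimulated genes described here are 39 genes whose transcription is raised by interferons, taken from a fixed list of symbols and read across the cell classes of mouse aorta. All 39 were found among the 55450 genes of the count matrix, and 36 of them form a core from which Ifitm3, Bst2 and Irf1, which many cells make without interferon, were left out. Together the 39 genes gave 984247 of the 360874803 UMIs (unique molecular identifiers, each marking 1 captured RNA molecule) in the cells kept.

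The tissue was whole aorta, dissociated and run on the 10x Genomics droplet platform, from 3 control mice labelled Best3FL/FL (both copies of Best3 flanked by loxP sites) and 3 labelled Best3SMKO, whose titles call them KD. The labels do not spell out SMKO, and Best3 is a member of the bestrophin family of chloride channels. The labels name neither a Cre driver nor the age or sex of the mice. The matrix joins 6 libraries that are told apart by a number from 1 to 6 on each cell barcode, and no label ties such a number to a mouse or a genotype. No comparison between genotypes was therefore made, and every statement below sets cell classes or single libraries side by side, with no test between groups.

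Interferons are secreted proteins that bind receptors on nearby cells and, through the kinases JAK1, TYK2 and JAK2, activate transcription factors that enter the nucleus. Type I and type III interferons assemble a complex with STAT2 and IRF9 that binds the interferon-stimulated response element (ISRE), and interferon gamma acts through the gamma-activated site (GAS). The genes switched on in this way sense viral RNA, block its translation, tag proteins with ISG15 or feed back on the pathway, and many tissues hold a low level of them without infection.

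The 39 genes lay at 29 places on 14 chromosomes of GRCm38 (GENCODE M21 annotation), and 16 of them sat in 6 groups of neighbours. The Ifit group, whose products bind foreign RNA, spanned chr19:34550694-34650009 with 4 members, and the Oas group, whose products make the messenger that activates RNase L, spanned chr5:120730333-120907521 with 3. Promoter sequences from RefSeq (GRCm38.p6) were matched for 29 of the 39 members, as 36 windows of 300 bases, 250 before and 50 after a start site. An ISRE-like motif, GAAA followed by any 2 bases and GAAA again on either strand, was in 18 of the 36 windows (50%), against 3.44% of all 32851 windows. A longer form that ends in GAAAC, each match of which also counts as the shorter one, was in 15 of the 36 (41.7%), against 0.819% of all windows. A GAS-like motif, TTCNNNGAA, was in 9 of the 36 (25%), against 8.3%. A match is a run of letters and was not tested for binding.

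The stretches below are the 200 bases before the start site of members that the later results turn on, with the ISRE-like motif in capitals (on the reverse strand where it begins with T). For Irf1, which had no ISRE-like match, the capitals mark the GAS-like motif, and for Ifitm3, whose motifs follow the start site, only the motifs and the bases between them are shown.
Ifit1, chr19:34640689-34640888: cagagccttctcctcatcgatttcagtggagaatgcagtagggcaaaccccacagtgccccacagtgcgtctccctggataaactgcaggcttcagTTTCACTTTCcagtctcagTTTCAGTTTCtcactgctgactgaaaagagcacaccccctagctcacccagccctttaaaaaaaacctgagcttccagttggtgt
Ifit3, chr19:34583329-34583528: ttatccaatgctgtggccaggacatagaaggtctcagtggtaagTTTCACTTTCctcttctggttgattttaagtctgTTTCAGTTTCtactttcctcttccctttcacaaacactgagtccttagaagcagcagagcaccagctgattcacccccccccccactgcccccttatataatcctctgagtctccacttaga
Ifit3b, chr19:34607757-34607956: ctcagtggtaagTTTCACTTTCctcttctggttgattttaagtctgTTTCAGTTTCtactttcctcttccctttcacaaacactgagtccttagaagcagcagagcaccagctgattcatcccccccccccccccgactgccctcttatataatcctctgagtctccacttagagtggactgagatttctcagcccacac
Isg15, chr4:156200819-156201018: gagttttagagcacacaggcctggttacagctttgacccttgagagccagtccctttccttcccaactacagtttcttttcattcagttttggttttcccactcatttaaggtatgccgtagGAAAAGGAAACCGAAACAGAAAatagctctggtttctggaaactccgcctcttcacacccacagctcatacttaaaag
Rsad2, chr12:26456453-26456652: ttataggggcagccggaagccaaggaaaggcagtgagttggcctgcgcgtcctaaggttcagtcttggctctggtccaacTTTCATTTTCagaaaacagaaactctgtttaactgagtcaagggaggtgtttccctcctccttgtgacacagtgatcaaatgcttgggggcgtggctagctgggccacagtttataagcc
Irf1, chr11:53769814-53770013: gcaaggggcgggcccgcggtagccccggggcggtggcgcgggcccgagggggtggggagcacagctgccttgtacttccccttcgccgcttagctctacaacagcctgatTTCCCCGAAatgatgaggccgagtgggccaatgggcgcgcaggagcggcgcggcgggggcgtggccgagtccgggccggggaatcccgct
Ifitm3, chr7:141010716-141010742: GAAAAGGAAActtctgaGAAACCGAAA
Isg15, Rsad2 and Ifitm3 are on the minus strand of the chromosome and the others on the plus strand. Ifit1 carried motif matches starting 104 and 85 bases before its start site, and Isg15 had 3 overlapping ones starting 78, 72 and 66 bases before it. The windows of Ifit3 and Ifit3b, neighbouring near-copies, shared an identical stretch of 169 bases with both motifs in it. Whether reads of the 2 transcripts can be told apart was not tested, so each value is uncertain. Igtp and Irgm2, Irf9 and Rnf31, and Ifi47 and Olfr56 overlap on the same strand, and Mx2 is annotated as a polymorphic pseudogene, so their counts are uncertain too.

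Of 60871 barcodes, 50769 were kept and fell into 22 clusters, which were named from marker genes, and the 39 members and 91 other interferon pathway genes were not used to form the clusters. The libraries held 7475 to 16269 barcodes and 51813179 to 96144873 UMIs. Library 5 stood apart before any member was read: it had the lowest median depth of 4708 UMIs a barcode, and 11.3% of its barcodes were called doublets, against 3.02% to 4.23% in the others. It also held 427 of the 496 B cell-like cells and 292 of the 378 epithelial-like cells, which were led by the airway and lung genes Bpifa1, Scgb1a1 and Sftpc. Among its fibroblast-like cells outside cluster 14 (below) the summed level of 6 B cell markers was 60.7 CPM, against 3.84 to 7.18 in the other libraries. Across libraries 414 of 60454 barcode sequences occurred more than once. Best3 itself ranged from 0.0381 to 0.443 CPM (UMIs per 1000000 UMIs of the same cells) in smooth muscle-like cells of the 6 libraries. These values rest on 20 UMIs in all, too few to tell the libraries apart.

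The summed level of the 39 genes differed widely between cell classes and was lowest in smooth muscle. It was 639.5 CPM in smooth muscle-like cells (95% Poisson interval 635.3 to 643.7; intervals here cover counting error only). It was 1837 CPM in B cell-like, 2580 in T cell-like and 3587 in fibroblast-like cells. It was 4360 CPM in epithelial-like, 4510 in macrophage-like, 4670 in Schwann cell-like, 4730 in endothelial-like and 6067 in lymphatic endothelial-like cells. Without library 5 the T cell-like sum was 1448 CPM and the epithelial-like sum 2350.5. The order of the upper classes rested on Ifitm3, Bst2 and Irf1, and Ifitm3 alone gave 3366 CPM of the lymphatic endothelial sum and 291.5 of the smooth muscle sum. Over the 36 core genes the sum was 254.4 CPM in smooth muscle-like cells, again the lowest, 2024 in lymphatic endothelial-like and 2064 in endothelial-like cells. It was 2543 CPM in epithelial-like, 2758 in macrophage-like and 2825 in Schwann cell-like cells. Over all 39 genes, the neighbours Schwann cell-like (4618 to 4722) and endothelial-like (4710 to 4750) had overlapping intervals. Over single libraries the smooth muscle values ran from 537.8 to 751.8 CPM and the endothelial values from 4250.5 to 5663, with no overlap.

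**Figure D1:**
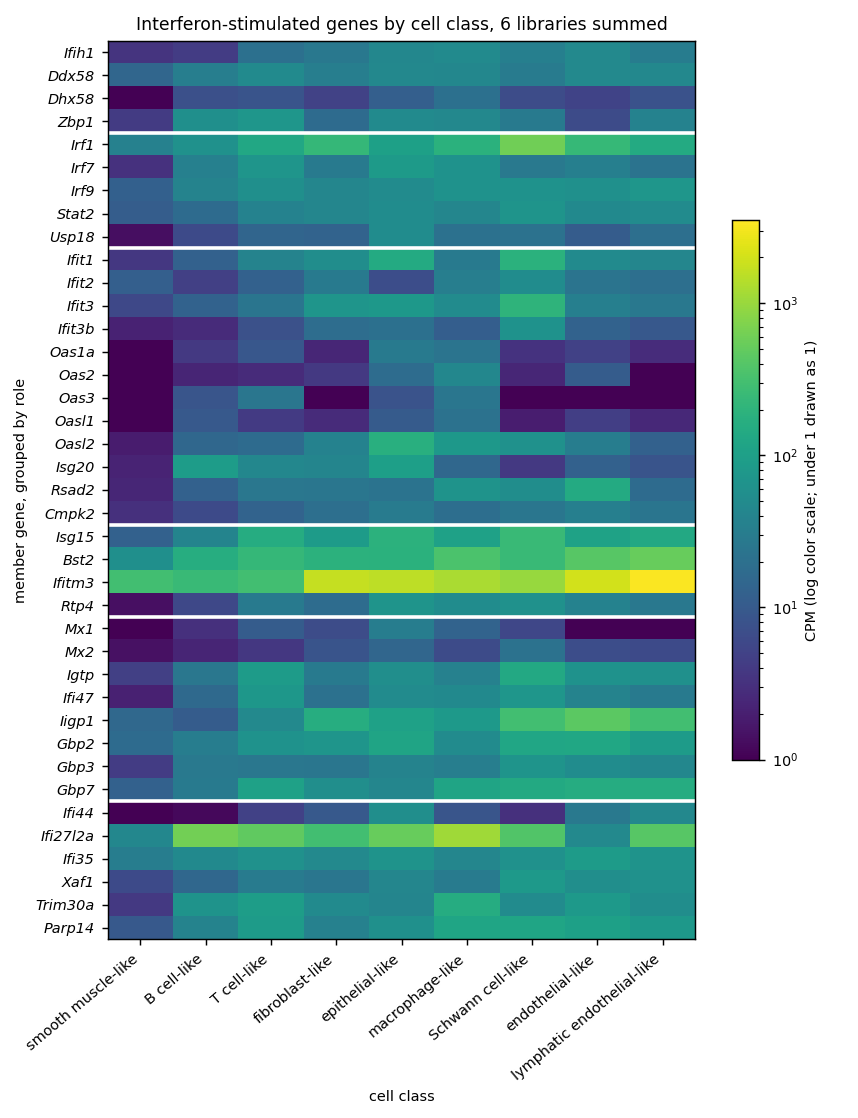
CPM of each of the 39 members (rows, grouped by role) in the 9 cell classes (columns), all 6 libraries summed, on a log color scale. By value the smooth muscle-like column is the lowest for 35 of 39 members, though the lowest values share the darkest color.

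Smooth muscle-like cells had the lowest CPM of the 9 classes for 35 of the 39 members (89.7%), where 18.5% of the 12988 genes that reached 10 CPM in some class were lowest there. The other 4 were Ifit2, Oas3, Ifitm3 and Iigp1. For 12 members (30.8%; 0.67% of all genes) the smooth muscle level was at most 0.25 of that in every other class. In each of the 6 libraries, 37 members were higher in fibroblast-like than in smooth muscle-like cells (39% of all genes), 36 were higher in endothelial-like cells (41.3%) and 36 in macrophage-like cells (32.4%). The core sum was 3.2 to 10.03 times as high in fibroblast-like as in smooth muscle-like cells of the same library, 6.81 to 9.35 times in endothelial-like and 7.03 to 16.78 times in macrophage-like cells. Without library 5 the fibroblast ratio ran from 3.2 to 4.2 and the macrophage ratio from 7.03 to 11.03.

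No member was placed in a single class, which asked for the highest CPM in every library and at least 4 times the next class (9.73% of all genes were). In all, 7 members were highest in the same class in every library, or 17.9% against 34.6% of all genes. These were Irf1, Stat2 and Mx2 in Schwann cell-like cells (5.27% of all genes), Dhx58, Oas2 and Trim30a in macrophage-like cells (6.01%) and Ifitm3 in lymphatic endothelial-like cells (2.96%). By the summed libraries, 12 members were highest in Schwann cell-like cells (16.7% of all genes), 8 in epithelial-like (11.6%), 7 in macrophage-like (12%), 5 in endothelial-like (8.26%), 4 in lymphatic endothelial-like (9.58%) and 3 in T cell-like cells (17.5%). No member was highest in B cell-like (5.31%), fibroblast-like (8.22%) or smooth muscle-like cells (10.8%). Without library 5, which leaves 7 classes of 200 or more cells, 16 of 38 members were highest in the same class in every library (45.6% of all genes), and 27 of 39 kept the class they led with it. Of the other 12, 8 had led in epithelial-like cells, a class no longer compared without library 5, so their change was fixed by that choice. Isg20, 1 of these 8, then led in fibroblast-like cells in every library, with 37.6 CPM against 22.2 in T cell-like cells. B cell-like cells, where its level without library 5 was higher still (below), were also no longer compared, so this lead depends on the classes left. Ifit1 in Schwann cell-like and Oas2 in macrophage-like cells were then placed (2 of 38, against 12.5% of all genes).

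The sensors of viral nucleic acid were spread thinly. Ifih1 (MDA5) and Ddx58 (RIG-I), which detect viral RNA, had near-equal levels in macrophage-like (49.1 and 43.1 CPM) and endothelial-like cells (46.4 and 46.5), against 3.5 and 14.9 in smooth muscle-like cells. Dhx58 (LGP2), their partner, was at 20.3 CPM in macrophage-like cells. Zbp1, which binds Z-form nucleic acid, was highest in T cell-like cells at 73.8 CPM. Without library 5 its T cell level was 30.9 CPM, beside 28.6 in lymphatic endothelial-like cells. In macrophage-like cells Zbp1 was at 130.5 CPM in library 5 and at 12.7 to 41.1 in the others, with a median of 20.9. Library 5 therefore lay above all other libraries for this gene in macrophage-like cells, while in smooth muscle-like cells library 6 was highest.

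Among the transcription factors and feedback genes, Irf1, a transcription factor induced early by interferon gamma, ranged from 36.1 CPM in smooth muscle-like cells to 601.3 in Schwann cell-like cells. Its Schwann cell level was 563.3 CPM in library 5 and 442.2 to 849.1 in the others, so library 5 lay inside their range. Irf7, the factor that amplifies type I interferon production, was at 63.5 CPM in macrophage-like and 85.4 in epithelial-like cells, and without library 5 at 35.7 and 10.5. The ISRE-binding partners Irf9 and Stat2 were at 72.7 and 51.2 CPM in lymphatic endothelial-like cells and at 12.3 and 11 in smooth muscle-like cells. Usp18, which removes ISG15 and blocks the type I receptor, was at 21.9 CPM in Schwann cell-like and 1.4 in smooth muscle-like cells.

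The 12 effectors against viral RNA led in 4 different classes. Ifit1, Ifit2, Ifit3 and Ifit3b were all highest in the Schwann cell-like class, which held 182.3, 53.4, 198.9 and 64.4 CPM of them. Without library 5 their levels there were 185, 54.4, 204.9 and 69 CPM. Oas2, Oas3 and Oasl1, of the family that senses double-stranded RNA, were highest in macrophage-like cells, at 44.2, 25 and 21.6 CPM, while Oas1a and Oasl2 were highest in epithelial-like cells. Without library 5 the macrophage levels of Oas2, Oas3 and Oasl1 were 43.2, 14.1 and 14.3 CPM. Among the classes then compared, Oas1a was highest in macrophage-like cells at 17.6 CPM and Oasl2 in Schwann cell-like cells at 60.3. Rsad2 (viperin), which makes a chain-terminating nucleotide, and its neighbour Cmpk2, which supplies the precursor, were both highest in endothelial-like cells, at 146.8 and 34.3 CPM. Isg20, an exonuclease, was at 100.1 CPM in epithelial-like and 91.7 in B cell-like cells, and without library 5 at 24.5 and 54.6.

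Of the ubiquitin-like and membrane effectors, Ifitm3, which blocks fusion of virus with endosomes, had a lymphatic endothelial level of 3366 CPM and a smooth muscle level of 291.5. Bst2 (tetherin), which holds budding virus at the membrane, followed with 530 CPM in lymphatic endothelial-like and 57.5 in smooth muscle-like cells. Isg15 was at 251 CPM in Schwann cell-like and 12.6 in smooth muscle-like cells. Rtp4 was at 69.1 CPM in epithelial-like cells (18.7 without library 5) and 62.2 in Schwann cell-like cells.

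The 8 interferon-inducible GTPases comprise proteins that attack vacuoles holding microbes and the antiviral Mx proteins. Iigp1 was at 442.8 CPM in endothelial-like and 15.9 in smooth muscle-like cells, and over libraries its endothelial level ran from 374.2 to 551.8 CPM. Gbp2, Gbp3 and Gbp7 were at 127.2, 52.4 and 155.1 CPM in endothelial-like cells and at 17.6, 4.3 and 12.7 in smooth muscle-like cells. Igtp was at 137.7 CPM and Ifi47 at 72.9 in Schwann cell-like cells, and Ifi47 was at 74.3 in T cell-like cells. Mx1 was at most 31.9 CPM, in epithelial-like cells, and Mx2 at most 21.6, in Schwann cell-like cells.

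Of the other induced genes, Ifi27l2a was at 1091 CPM in macrophage-like cells and 43.6 in smooth muscle-like cells. Its macrophage level was 1290 CPM in library 5 and 686.6 to 1301 in the others, so library 5 did not stand out for it. Trim30a, a restraint on inflammatory signalling, was at 156.9 CPM in macrophage-like cells. Xaf1 and Parp14 peaked at 83.2 and 120.9 CPM in the Schwann cell-like class, Ifi35 in endothelial-like cells at 87.7 and Ifi44 in epithelial-like cells at 56 (12.8 without library 5).

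Clusters within a class differed too. In endothelial-like cells, cluster 4, led by the capillary genes Gpihbp1, Rbp7 and Car4, had a core sum of 3354 CPM, against 1160 in cluster 5, led by Cytl1, Gja5 and Sfrp1. Of 34 members tested, 11 were highest in cluster 4 of the 4 endothelial clusters in every library (32.4%, against 9.45% of all genes), and none was in cluster 5 (9.27%). Rsad2 was at 410.1 CPM in cluster 4, with libraries from 289 to 563.1, and its highest library value in the other 3 endothelial clusters was 195.1 CPM, in cluster 16 of library 5. In Schwann cell-like cells, cluster 15, led by Fabp7 and Cdh19, had a core sum of 4605 CPM and cluster 12, led by the myelin gene Mbp, 1166. Cluster 15 was higher in all 5 libraries with enough cells for 26 of 33 members (78.8%; 22% of all genes), at least 2 times as high for 25 of them (11.7%). In smooth muscle-like cells, cluster 11, led by Pln, was higher than cluster 0 in every library for 6 of 17 members (20.6% of all genes).

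**Figure D2:**
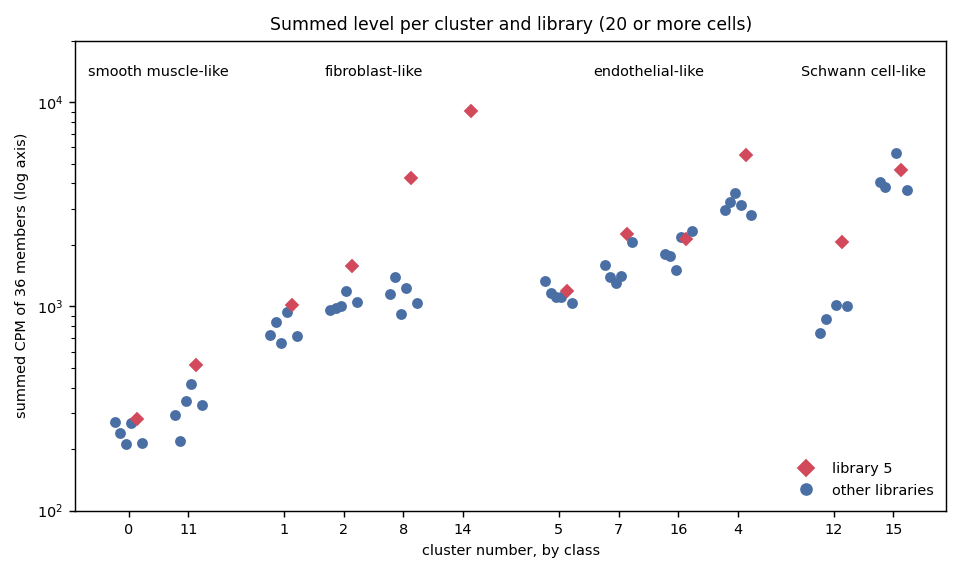
Summed CPM of the 36 core members (log axis) in clusters of 4 classes, 1 point per library with 20 or more cells of the cluster. Cluster 14 has a point in library 5 only, at 9042 CPM, and clusters 4 and 15 lie above the other clusters of their classes in each library plotted.

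Library 5 was named in advance as a library to show apart, with earlier results known, so what follows describes it. In fibroblast-like cells the sum of all members was 5779 CPM in library 5 and 2700 to 3105 in the others, and the core sum was 2983 against 837.1 to 1128. All 39 members were highest in library 5 there, where 20.1% of 16035 genes were, and 32 reached at least 2 times the median of the other libraries (3.74% of genes). In macrophage-like cells 36 of 39 were highest in library 5 (22.7% of genes) and 27 reached the factor of 2 (3.81%). In endothelial-like cells 27 of 37 were highest (23.8%) and 7 reached the factor (2.35%). In smooth muscle-like cells 13 of 35 were highest in library 5 (16.6%) and 9 reached the factor (2.1%), while 12 were highest in library 4 (19.5%).

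**Figure D3:**
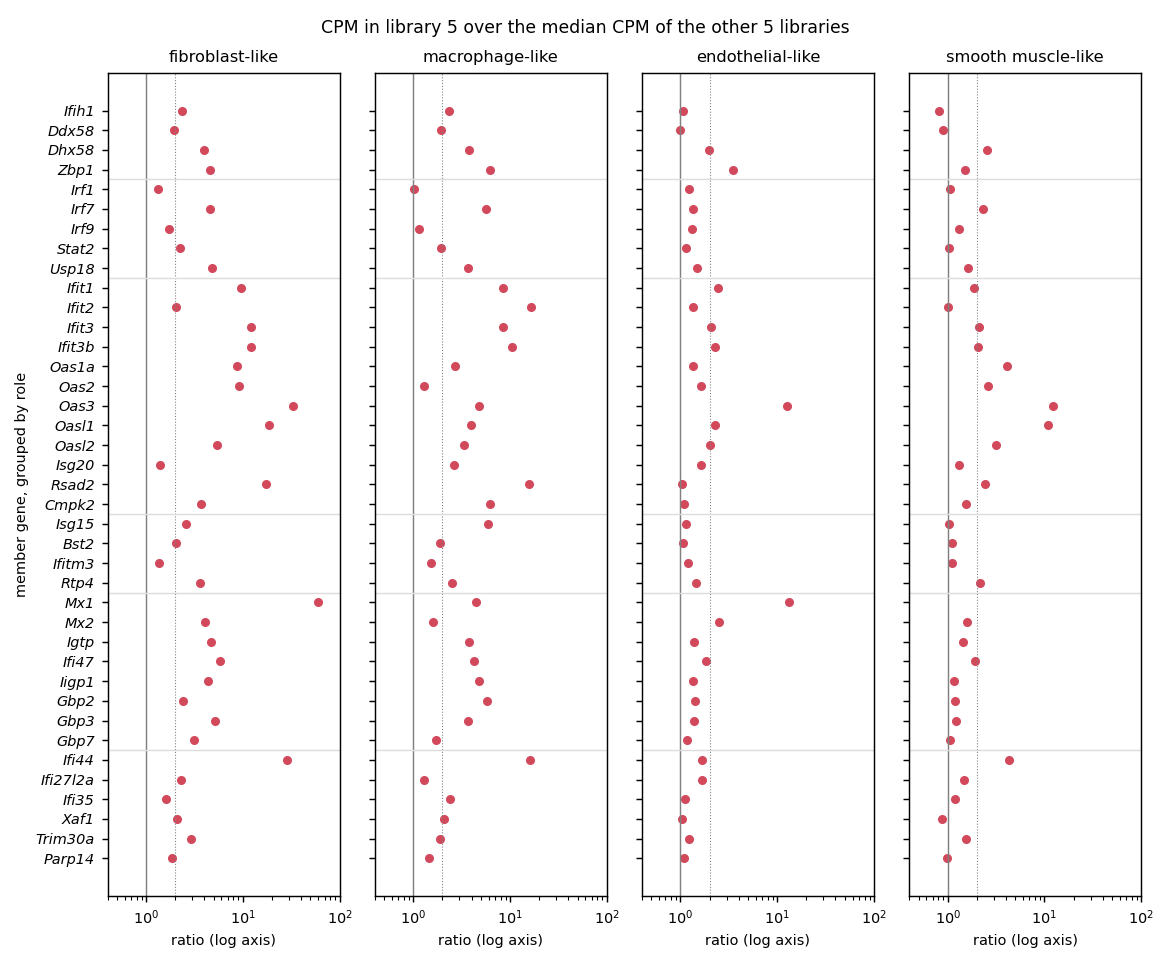
CPM in library 5 divided by the median CPM of the other 5 libraries (log axis) for each member in 4 classes; the solid line is 1 and the dotted line 2. The median ratio over members is 3.94 for the fibroblast-like, 3.64 for the macrophage-like, 1.36 for the endothelial-like and 1.44 for the smooth muscle-like class.

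The highest library was at least 2 times the lowest for 30 of 33 members with enough counts of the fibroblast-like class (10.9% of genes) and 29 of 33 of the macrophage-like class (11.9%). In endothelial-like cells it was so for 12 of 34 (8.1%), and in smooth muscle-like cells for 15 of 29 (11.4%). Without library 5 the counts were 6 of 33 (fibroblast-like), 14 of 33 (macrophage-like), 2 of 34 (endothelial-like) and 13 of 29 (smooth muscle-like). The share of all genes was not computed for that case. In the same order, the median ratio of highest to lowest library was then 1.59, 1.85, 1.4 and 1.76 over members. Over all genes it was 1.37, 1.4, 1.37 and 1.34. The median ratio of library 5 to the other libraries was 3.94 over members in fibroblast-like cells and 3.64 in macrophage-like cells, against 1.03 and 1.02 over all genes. The 6 members with the widest spread between libraries within a class all had library 5 as the highest. Rsad2 in fibroblast-like cells was at 84.7 CPM in library 5 and 3 to 5.9 in the others, a ratio of highest to lowest of 28.6. Ifit3b there was at 53.9 CPM against 3.9 to 9.9. In macrophage-like cells Irf7 was at 183.3 CPM against 11.4 to 59.9, and Isg15 at 316.1 against 28.4 to 133.9. Ifit1 was at 99.1 CPM against 7.1 to 16, and Ifit3 at 175.6 against 11.1 to 53.6. These 6 were picked for their wide spread, so the size of the gap between library 5 and the others follows from that choice. The smallest ratios were those of Irf1, at 1.34 in fibroblast-like cells and 1.02 in macrophage-like ones. Members with an ISRE-like motif in the windows had a median ratio of 3.09 in fibroblast-like cells (17 members) and those without it 2.9 (12 members).

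Part of the fibroblast difference sat in cluster 14, which was led by Saa3, Ces1d, C3 and Cxcl14 and carried all 6 fibroblast markers at a lower summed level (13534 CPM, against 21576 to 28516 in clusters 1, 2 and 8). It held 762 of its 812 cells in library 5, or 14.7% of the fibroblast-like cells of that library, and at most 0.66% elsewhere. A cluster found mostly in 1 library may be that library rather than a cell type. Where the members themselves were among the genes used for clustering, a cluster of 813 cells led by Saa3 and the mesothelial gene Upk3b took its place. It was named mesothelial-like, and 22 of 39 members were then highest in library 5 in fibroblast-like cells. The share of all genes highest there was not computed for that clustering. In library 5, cluster 14 of the first clustering had 14136 CPM of all members, with Ifit3 at 864, Iigp1 at 1080 and Isg15 at 532 CPM. Its summed mesothelial markers were 30.2 CPM, epithelial markers 20.4 and B cell markers 116.5, against 1.81 to 12, 4.06 to 18.6 and 16.1 to 22.9 CPM in clusters 1, 2 and 8, and the part of such RNA in the result was not tested. Without cluster 14, library 5 had 3927 CPM of all members against 2703 to 3049, and 37 of 39 members were still highest in library 5 (17.9% of genes), 21 at the factor of 2 (2.51%). In cluster 8, led by Pi16 and Cd248, 38 of 38 members were highest in library 5 (18.8%), in cluster 2 25 of 36 (19.4%) and in cluster 1 15 of 35 (16.7%).

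**Figure D4:**
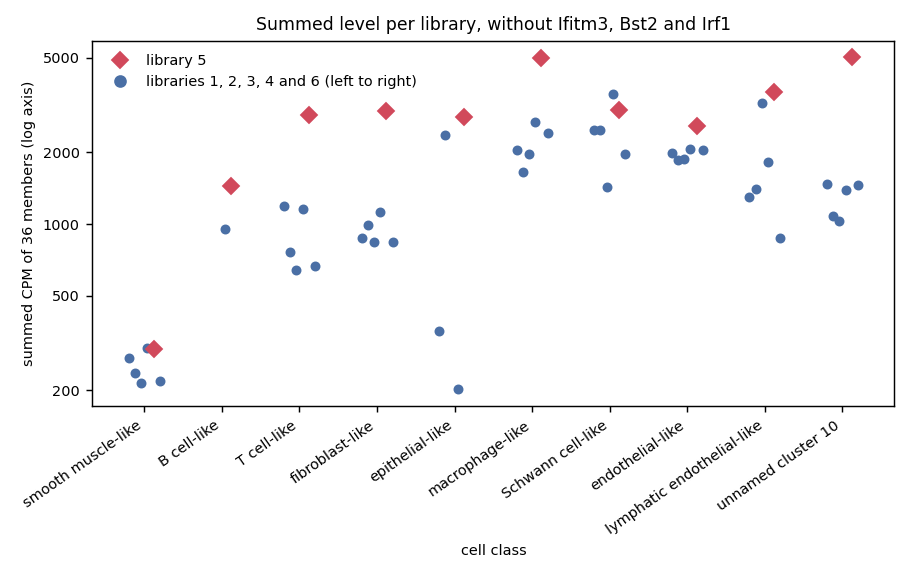
Summed CPM of the 36 core members per library (log axis) in 9 classes and unnamed cluster 10; classes with under 20 cells in a library have no point for it. In fibroblast-like, macrophage-like and T cell-like cells the red point of library 5 lies above all 5 others, and in smooth muscle-like cells it lies among them.

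Other classes of library 5 did not all follow. In T cell-like cells the core sum was 2868 CPM in library 5 and 642.2 to 1191 in the others. In lymphatic endothelial-like cells library 5 was at 3572 CPM and library 3 at 3225, with the other libraries at 874.9 to 1819. In Schwann cell-like cells library 4, at 3507 CPM, was above library 5, at 3006. In endothelial-like cells library 5 was highest in cluster 4 for 32 of 37 members (25.9% of genes). In cluster 7 it was highest for 19 of 33 (20.8%), but in cluster 5 for 4 of 33 (19.5%).

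At equal depth, with each cell thinned to 3000 UMIs and shallower cells left out, cells with at least 10 core UMIs made up 0.277% of smooth muscle-like cells (34 of 12294; exact binomial 95% interval 0.19% to 0.39%). They made up 8.82% of fibroblast-like, 17.9% of endothelial-like and 24% of macrophage-like cells. Without thinning the shares were 2.66%, 21.1%, 32.6% and 40.8%. In fibroblast-like cells library 5 had 19.6% and the others 2.98% to 6.33%, and in macrophage-like cells 45% and 11.5% to 28.7%. In endothelial-like cells 15.8% to 21.7% of cells passed in every library, library 5 being highest. Cluster 14 had 67.2% of cells past the threshold, cluster 15 had 43% and cluster 4 had 35.9%. The threshold cuts a range and not a cell type: 331 fibroblast-like cells had 8 or 9 core UMIs and 243 had 10 or 11. Shallow cells left out numbered 1314 of 5174 fibroblast-like cells in library 5 and 372 of 810 macrophage-like ones.

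**Figure D5:**
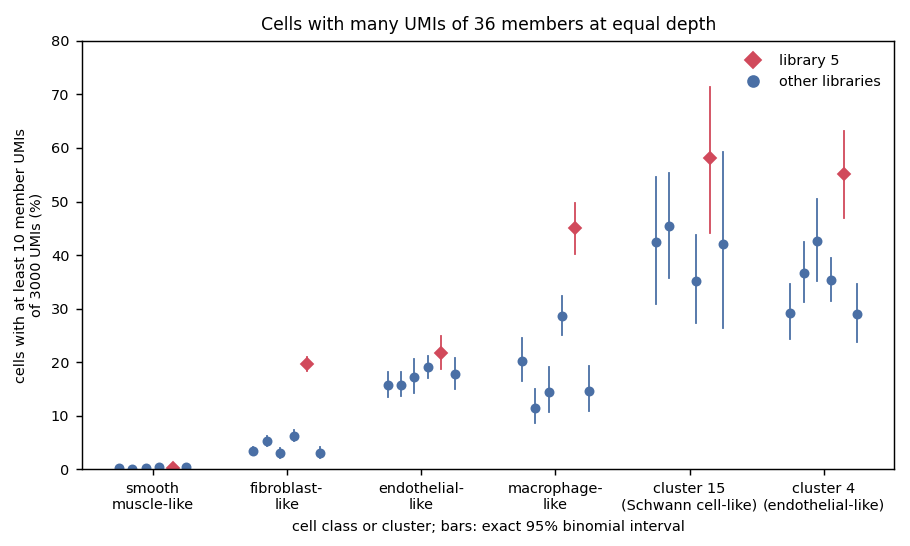
Share of cells with at least 10 core member UMIs among 3000 UMIs, per library, with exact 95% binomial intervals (counting error only). Smooth muscle-like cells stay under 1% in every library, and in fibroblast-like cells library 5 is at 19.6% against 2.98% to 6.33%.

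Interferon-induced genes outside the 39, listed with earlier results of these data known, were read in the cells so chosen. In fibroblast-like cells of library 5, 37 of 39 such genes tested had at least 2 times the CPM in cells past the threshold than in the rest, against 4.36% of all genes. In the other libraries together it was 28 of 35 (1.33%). In endothelial-like cells of library 5 it was 32 of 41 (6.2%), and in the other libraries 26 of 39 (2.84%). In macrophage-like cells it was 35 of 42 (4.7%) and 24 of 37 (1.2%). The chosen cells of library 5 were deeper than the rest in fibroblast-like cells, with medians of 6711 and 5552 UMIs, and shallower in endothelial-like cells, with 5435 and 5632. In macrophage-like cells they were deeper, with 5568 and 4729. Of the 757 chosen fibroblast-like cells of library 5, 442 were of cluster 14, and of the 162 chosen endothelial-like cells 85 were of cluster 4. Those contrasts therefore mix differences between clusters with differences within them, and the part of each was not tested.

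RNA of the ligands was barely detected. Of 20 interferon genes, 7 had any UMI in the cells kept, 229 UMIs in all, and a count of 0 allows up to 3. Ifng, interferon gamma, made 191 of them and was placed in the T cell-like class, with 48.9 CPM (181 UMIs; 42.1 to 56.6); library 5 had 58.8 CPM and the others 15.5 to 97.5. Ifnz and Ifnk followed with 18 and 7 UMIs, and Ifnb1, interferon beta, had 7.

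Of 6 receptor genes, 5 reached 10 CPM in a class and 4 were lowest in smooth muscle-like cells (18.5% of all genes). Ifngr1, a chain of the interferon gamma receptor, was at 741.9 CPM in T cell-like and 39.3 in smooth muscle-like cells, Il10rb at 206.8 in macrophage-like and 19.8 in smooth muscle-like cells, and Ifnar1 at 151.4 in T cell-like and 16.1 in smooth muscle-like cells. Among the kinases and inhibitors of the pathway, Socs3, a feedback inhibitor, reached 1388 CPM in the Schwann cell-like class, and Jak1 at 484.9 in T cell-like cells. Of 14 sensing genes found, Tlr7, a receptor for single-stranded RNA, was placed in the macrophage-like class with 157.2 CPM, where library 5 had 138.2 and the others 125.8 to 191.1. Irf8 was at 190.8 CPM in B cell-like cells and Trim25 at 144.4 in macrophage-like cells.

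Of 43 other interferon-induced genes, 41 reached 10 CPM and 36 of these were lowest in smooth muscle-like cells (18.5% of all genes). In fibroblast-like cells 38 of 41 were highest in library 5 (20.1% of genes) and 27 reached the factor of 2 (3.74%). In macrophage-like cells the counts were 37 (22.7%) and 25 (3.81%) of 41. In endothelial-like cells 19 of 40 were highest in library 5 (23.8%) and in smooth muscle-like cells 16 of 38 (16.6%). Ifitm2, a neighbour of Ifitm3, was at 1428 CPM in lymphatic endothelial-like cells, Ly6e at 1427 in macrophage-like cells and Ifitm1 at 784.5 in epithelial-like cells (4.67 without library 5). This list was drawn up with earlier results of these data known.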

How the data were processed

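The deposited matrix holds raw UMI counts per gene and barcode from single-cell libraries of mouse aorta, which the authors made with Cell Ranger on GRCm38, per the labels and the file headers. The submitters' processing notes name Cell Ranger 3.1.0, Seurat 3.1.1 and bcl2fastq 5.01, and the matrix header names another Cell Ranger release. Barcode suffixes 1 to 6 mark libraries that no label ties to a sample.

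Barcodes with at least 500 genes, at most 20% mitochondrial counts and no Scrublet doublet call (per library) were kept. Log values after scaling every cell to 10000 counts, 2000 variable genes (members and pathway genes left out) and 30 components with 20 neighbours gave Leiden clusters at resolution 0.5 (scanpy 1.11.5, leidenalg 0.10.2). A cluster was named from 23 fixed marker lists where at least 3 markers reached 10 CPM and 2 times the median cluster and the next list scored over 0.3 lower (log2), unless its 10 leading genes held as many markers of another list; that last tie rule was set after the clusters were seen. A cluster of low depth with no marker of its best list among its leading genes was also left unnamed. This held for cluster 6, with 2019 cells, a median of 1338 UMIs and smooth muscle as its best list. Raw counts were then summed per class and library and given as CPM (UMIs per 1000000). Genes were counted where they reached 10 CPM in a class of 200 or more cells, and libraries were compared within classes of at least 100 cells each and genes of at least 50 counts. The counting rules were tested on simulated data.

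Named in full were the member of highest CPM in each role, members placed in a class and the 6 of widest library ratio; each pathway list gave its 3 genes of highest CPM and any placed gene, of which 1 result is not reported here. The members and all lists were chosen with earlier results of these data known. No label says which mice the libraries came from, and no p-value was computed.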

Additional observations from a re-analysis of the deposited data

How the results depend on the processing

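Over 19 results, 223 values under other settings were computed, of which 154 stayed within the spread or the factor of 1.5 and 69 moved. Direct sums have narrow counting intervals, so small shifts count as moved. In this order, fibroblast-like, smooth muscle-like, endothelial-like and macrophage-like cells had summed levels of 3052.83, 621.155, 4776.68 and 4604.12 CPM with at most 10% mitochondrial counts, 3560.2, 621.795, 4440 and 4183.75 CPM with doublets kept, and 1463.15, 254.401, 2064.08 and 2758.43 CPM without Ifitm3, Bst2 and Irf1. With at least 1000 genes a cell the fibroblast and macrophage sums were 3599.37 and 4448.71 CPM. At Leiden resolution 1 the fibroblast, smooth muscle and macrophage sums were 3622.51, 633.663 and 4464.57 CPM. With members and pathway genes among the variable genes, the fibroblast and smooth muscle sums were 2940.71 and 614.811 CPM. In fibroblast-like cells 22 members were then highest in library 5 in place of 39, and 12 in place of 30 spread over 2 times between libraries. For these 2 counts the share of all genes was not computed with that clustering. The shares of cells with many core UMIs were then 5.04% in fibroblast-like and 0.19% in smooth muscle-like cells. With at most 10% mitochondrial counts 16 spread over 2 times and that fibroblast share was 5.34%. With doublets kept 3 members were highest in 1 class in every library and the macrophage share was 21.8%. Asking for 50 CPM left 4 such members, and a factor of 2 placed 2 members. With at least 50 counts in each library, 8, 7 and 14 members spread over 2 times in smooth muscle-like, endothelial-like and macrophage-like cells. With at least 15 core UMIs the 4 shares were 5.34%, 0.13%, 8.81% and 13.1%. Without cluster 14, added after seeing the data, the fibroblast sum was 3069.76 CPM and its share 5.71%. The cause of these shifts was not tested.

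With each library left out in turn, summed levels in CPM ran from 2856.62 to 3793.95 (fibroblast-like), 621.842 to 666.092 (smooth muscle-like), 4578.46 to 4836.46 (endothelial-like) and 3838.99 to 4805.15 (macrophage-like). The shares of cells with many core UMIs ran from 4.39% to 9.78% (fibroblast-like), 0.244% to 0.296% (smooth muscle-like), 17.2% to 18.8% (endothelial-like) and 19.5% to 26.3% (macrophage-like). Members highest in library 5 were counted only with that library kept. They then numbered 39 in each case (fibroblast-like), 13 to 18 (smooth muscle-like), 27 to 30 (endothelial-like) and 36 to 38 (macrophage-like). Leaving out another library cannot take library 5 from the top for a member. These counts could therefore fall only where a member lost the minimum of counts, so they do not test the result. Members spread over 2 times numbered 6 to 30 (fibroblast-like), 11 to 15 (smooth muscle-like), 2 to 12 (endothelial-like) and 14 to 30 (macrophage-like). Members highest in 1 class in every library numbered 7 to 16, and members placed in a class 0 to 2. The upper ends of the last counts, 16 and 2, and the lower ends of the fibroblast, endothelial and macrophage spread, came without library 5.

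No paired analysis was possible because the library numbers match no sample label. Smooth muscle-like cells had the lowest of the 4 sums in every setting above. Depth limits low members: Oas3, Mx1, Oas1a, Oas2, Oasl1, Dhx58 and Ifi44 were under 1 CPM in smooth muscle-like cells, and library 5 was the shallowest. The 6 libraries cannot be assigned to mice or genotypes, so no error between animals was available.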

Other observations

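Cells outside the named classes held members too. Unnamed cluster 10, led by the myeloid and antigen presentation genes S100a8, S100a9, Lyz1 and Cd74, had 5447 CPM of all 39 members, and 673 of its 1159 cells were of library 5. Its core sum was 5018 CPM in library 5 and 1030 to 1472 in the others. Irf7 was at 237.3 CPM there and Zbp1 at 114.7, above their values in each of the 9 named classes. Unnamed cluster 17, led by Actc1 and Des, had a core sum of 1998 CPM in library 5 and 444.4 to 965.1 in the others. Unnamed cluster 19, in which adipocyte and mast cell genes were mixed, ran from 219.6 CPM in library 6 to 3280 in library 4, with Ifi27l2a alone at 1397 CPM over all libraries. Epithelial-like cells had a core sum of 2822 CPM in library 5 and 2364 in library 2, against 356.7 in library 1 and 203 in library 4, with 34, 20 and 28 cells in the last 3.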
